A study of Mus musculus with 2 samples.

Results

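The interferon regulatory factors (IRFs) were examined in RNA sequencing libraries of the mouse colon cancer line CT26, with and without a knockdown of Setdb1. The members were the rows of the deposited gene table named Irf1, Irf2, Irf3, Irf4, Irf5, Irf7, Irf8 and Irf9, which are 8 of its 54680 loci. The CT26shSetdb1 group was CT26 cells infected with a lentivirus whose short hairpin RNA targets Setdb1, the gene of an enzyme that methylates lysine 9 of histone H3. The CT26shCtrl group was CT26 cells, wild type in genotype, infected with a lentivirus that held the knockdown vector without an insert. Both were cultured for 6 days in the same serum-containing medium, until the knockdown cells looked different, and the labels call the knockdown cells differentiated. Whether each library came from a pool of infected cells or from a clone, and how many hairpins were used, is not given in the sources used here. Each group had 1 library, called shCtrl and shSetdb1 below, so every difference describes these 2 libraries, has no replicate check and carries no p-value.

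IRF proteins share an amino-terminal DNA-binding domain, marked by conserved tryptophans, that reads GAAA repeats in DNA. IRF3, IRF5 and IRF7 wait in the cytoplasm and are phosphorylated downstream of receptors for foreign or misplaced nucleic acid, after which they switch on type I interferon genes. IRF9 is the DNA-reading subunit of the complex with STAT proteins that carries the signal of the interferon receptor to the interferon-stimulated response element (ISRE). IRF1 is an activator made after interferon and inflammatory signals, IRF2 competes with it for the same sites, and IRF4 and IRF8 act mainly in blood cells. Irf7 is itself an interferon-stimulated gene in most cell types, whereas Irf3 is commonly described as made at a steady level.

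Reads recovered from the table came to 18421604 in the shCtrl library and 19045830 in the shSetdb1 library. Setdb1 itself had 1340 reads (10.4 FPKM) in the shCtrl library and 317 reads (2.47 FPKM) in the shSetdb1 library, 23.7% of the control level. Levels are in FPKM, a count of sequenced fragments divided by gene model length and by a depth that was the same for both libraries. They can be compared between genes, but the order of close levels can depend on the length used. Read ratios are CT26shSetdb1 over CT26shCtrl, after dividing each count by the read total of its library. They carry 95% exact binomial (Clopper-Pearson) intervals, which cover counting error only and treat each read as an independent molecule. PCR copies without molecular identifiers are not independent molecules, so the intervals may be too narrow even for that error. Colon epithelial markers were mixed. Epcam and Cdh1 had 0 reads in both libraries. In the shCtrl and shSetdb1 libraries Krt18 stood at 37.7 and 90.0 FPKM, and Krt20 at 5.07 and 35.6 FPKM. Of 8 such markers, 3, all keratins, reached 1 FPKM, 1 of them in the shSetdb1 library only. Of 12 markers of blood cells, where Irf4, Irf5 and Irf8 are best known, 1 reached 1 FPKM.

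Promoter windows of the members are shown first because IRF proteins read interferon-responsive elements and some IRF genes, such as Irf7, are themselves interferon-stimulated. RefSeq (GRCm38.p6) gave 11 windows of 300 bases, from 250 before to 50 after an annotated start, and all 8 members had at least 1. They were searched on both strands for the ISRE core GAAANNGAAA and for the gamma-activated sequence TTCNNNGAA, an element read by STAT dimers. The following 4 are the first windows listed for the gene that differed most between the libraries and for the 3 members with a match. Each reads 5′ to 3′ along the gene's strand, with matches in capitals.
Irf7 (chr7:141266375-141266674, minus strand): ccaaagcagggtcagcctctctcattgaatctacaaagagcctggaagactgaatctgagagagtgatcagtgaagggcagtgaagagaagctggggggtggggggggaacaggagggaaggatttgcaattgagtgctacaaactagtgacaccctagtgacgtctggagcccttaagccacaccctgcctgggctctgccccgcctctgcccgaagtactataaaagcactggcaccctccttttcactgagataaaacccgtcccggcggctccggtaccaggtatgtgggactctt
Irf1 (chr11:53769764-53770063, plus strand): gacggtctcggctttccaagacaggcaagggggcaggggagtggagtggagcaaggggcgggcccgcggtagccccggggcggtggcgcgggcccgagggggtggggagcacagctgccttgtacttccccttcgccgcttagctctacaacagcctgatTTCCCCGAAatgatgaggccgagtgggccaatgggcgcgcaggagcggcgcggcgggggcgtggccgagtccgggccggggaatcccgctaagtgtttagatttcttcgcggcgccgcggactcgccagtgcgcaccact
Irf2 (chr8:46739495-46739794, plus strand): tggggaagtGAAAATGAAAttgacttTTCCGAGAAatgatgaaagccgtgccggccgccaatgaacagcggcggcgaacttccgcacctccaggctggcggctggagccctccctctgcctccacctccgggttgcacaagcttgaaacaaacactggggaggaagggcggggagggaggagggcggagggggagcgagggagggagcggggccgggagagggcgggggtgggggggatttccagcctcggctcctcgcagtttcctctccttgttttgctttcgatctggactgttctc
Irf8 (chr8:120736108-120736407, plus strand): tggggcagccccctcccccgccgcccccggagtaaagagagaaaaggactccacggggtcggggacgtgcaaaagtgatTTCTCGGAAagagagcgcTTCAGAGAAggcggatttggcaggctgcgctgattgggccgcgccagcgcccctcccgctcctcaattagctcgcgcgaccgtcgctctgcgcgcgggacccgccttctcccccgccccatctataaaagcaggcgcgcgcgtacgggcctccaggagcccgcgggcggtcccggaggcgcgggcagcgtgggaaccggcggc
The ISRE core was found in 1 of the 11 windows, that of Irf2, as GAAAATGAAA. Across all 32851 windows of the same length, 3.44% held it. The gamma-activated sequence was found in 3 windows, against 8.30% of all windows. Irf1 held it as TTCCCCGAA, starting at -90 from the annotated start, Irf2 as TTCCGAGAA, and Irf8 at a pair of places. In Irf2 the ISRE core and the gamma-activated sequence did not overlap. The windows of Irf3, Irf4, Irf5, Irf7 and Irf9 held neither set of letters. A match is a description of the letters, and a window without one says nothing about sites elsewhere in the gene.

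All 7 members with more than 3 reads in a library were higher in the shSetdb1 library, where 49.6% of all genes tested were higher by any amount, and Irf7 far more so than the others. Counted on the log2(FPKM + 1) scale, 3 members, Irf5, Irf7 and Irf9, stood at least 2-fold higher and 0 stood lower by as much. Over the 10671 genes that reached 1 FPKM in either library, 6.81% were higher by that much and 4.85% lower. At 1.5-fold, 5 members were higher, against 16.9% of all genes, and at 4-fold 1 was, Irf7, against 1.09%. The median log2 ratio was 0.99 over the 7 members at that level and -0.00039 over all 10671 genes. Irf5 and Irf8 entered this count only through the shSetdb1 library, where they are higher, and Irf4 did not enter it, so count and median describe the family and support nothing further. The pseudocount of 1 also shrinks the ratios of these low genes.

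**Figure D1:**
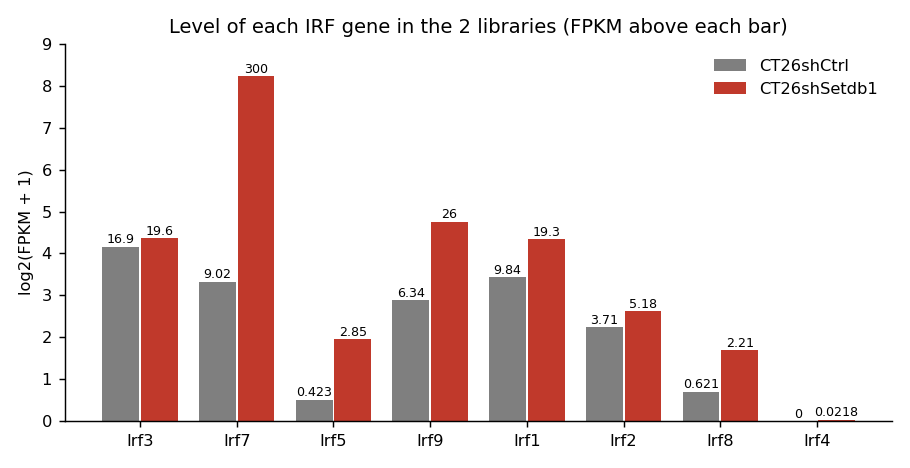
Level of each IRF gene as log2(FPKM + 1), grey for the shCtrl library and red for the shSetdb1 library, with the FPKM value above each bar and 1 library per group. Irf7 was the third highest of the family at 9.02 FPKM in CT26shCtrl and the highest at 300 FPKM in CT26shSetdb1, while Irf3 stood at 16.9 and 19.6 FPKM.

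Irf7 (ENSMUSG00000025498) is a gene of chromosome 7 (141262706 to 141266481 in GRCm38, minus strand), and its principal transcript has 10 exons. It had 638 reads (9.02 FPKM) in the shCtrl library and 21227 reads (300.1 FPKM) in the shSetdb1 library. The read ratio was 32.2 (interval 29.7 to 34.9) and the log2 ratio of (FPKM + 1) was 4.91. In bulk RNA, a change in the share of cells that express a gene and in the RNA per cell cannot be told apart. Irf7 went from rank 4801 to rank 186 by FPKM among all loci. Among the 10671 genes over the filter its log2 ratio was the second highest, after Gapdh. The table's model of Irf7 covers 100% of the gene's span, introns included, because some of its 13 annotated transcripts retain introns. Per length of the principal transcript, 1916 bases against 3776 for the model, the same reads correspond to 17.8 and 591 FPKM.

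The gene that overlaps Irf7 did not share its difference, and the nearest other locus on each side had few reads. Phrf1, on the opposite strand, shares 45 bases with the Irf7 model, 1.19% of it, and had 3097 and 3907 reads in the shCtrl and shSetdb1 libraries. Its read ratio was 1.22 (1.16 to 1.28). Cdhr5, the next locus upstream of Irf7 at a distance of 2602 bases, had 5 and 7 reads, a ratio of 1.35 (0.370 to 5.41). Mir210, the nearest locus on the other side that does not overlap Irf7, had 1 and 3 reads, too few for a ratio.

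Irf3 and Irf5 act beside Irf7 as factors activated by nucleic acid sensing, and they differed from it and from each other. Irf3 (chromosome 7, 44997648 to 45002848) had 1089 reads (16.9 FPKM) in the shCtrl library and 1261 reads (19.6 FPKM) in the shSetdb1 library. Its read ratio of 1.12 (1.03 to 1.22) was the lowest of the family, and 35.9% of the genes over the filter had a higher log2 ratio. The gene shares 88 bases with the divergent gene Bcl2l12, whose read ratio was 1.17 (0.912 to 1.51), and lies 100 bases from Scaf1, whose ratio was 1.20 (1.16 to 1.25). The intervals of Irf3 and these neighbours overlap. In the shCtrl library Irf7 stood at 0.534 of the Irf3 level, and in the shSetdb1 library at 15.3 times it, so the balance of the pair shifted 28.7-fold (25.6 to 32.2).

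Irf5 (chromosome 6, 29526625 to 29541871) was scarce in the shCtrl library, with 23 reads (0.423 FPKM), and reached 155 reads (2.85 FPKM) in the shSetdb1 library. The read ratio was 6.52 (4.19 to 10.6), the second highest of the family, with the widest interval because of the few control reads. The log2 ratio of (FPKM + 1) was 1.44. Its 3′ end faces Tnpo3 on the opposite strand, and the models share 411 bases, 14.1% of the Irf5 model. Tnpo3 had 1364 reads in the shCtrl library and 852 in the shSetdb1 library, a read ratio of 0.604 (0.554 to 0.659), opposite in direction to Irf5. How reads in the shared bases were assigned is not given in the sources used here.

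Irf9 (chromosome 14, 55603571 to 55610030) had 640 reads (6.34 FPKM) in the shCtrl library and 2625 reads (26.0 FPKM) in the shSetdb1 library. The read ratio was 3.97 (3.64 to 4.33) and the log2 ratio of (FPKM + 1) was 1.88, which 1.33% of the genes over the filter exceeded. The upstream gene on the same strand, Rnf31, which encodes the catalytic subunit of the linear ubiquitin ligase, runs into the Irf9 model by 123 bases. It was also higher, with 990 and 2542 reads and a ratio of 2.48 (2.31 to 2.68). Psme2, a proteasome activator subunit and the nearest non-overlapping locus on that side, had 1237 and 2388 reads, a ratio of 1.87 (1.74 to 2.002). On the other side Rec8, a meiotic cohesin, had 0 and 4 reads. The authors' annotation gives the same protein match to 2 loci for Irf9.

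Stat2, whose product is a partner of IRF9 in the interferon-stimulated complex, was higher too. It had 578 and 3051 reads (5.21 and 27.5 FPKM), a read ratio of 5.11 (4.67 to 5.59), and in both libraries its level was close to that of Irf9.

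Irf1 and Irf2, activator and competitor at the same sites, differed less between the libraries. Irf1 (chromosome 11, 53770014 to 53778374) had 733 reads (9.84 FPKM) in the shCtrl library and 1438 reads (19.3 FPKM) in the shSetdb1 library. Its read ratio of 1.90 (1.73 to 2.08) had an interval that includes 2, and its log2 ratio of (FPKM + 1), 0.91, fell short of 2-fold. Gm17334, an opposite-strand locus within Irf1, had 0 and 5 reads. Irf2 (chromosome 8, 46739732 to 46847458) had 514 reads (3.71 FPKM) and 717 reads (5.18 FPKM), a read ratio of 1.35 (1.20 to 1.51). The Irf1 level was 2.65 times the Irf2 level in the shCtrl library and 3.73 times in the shSetdb1 library, a shift of 1.41-fold (1.21 to 1.63). Irf1 and Irf2 are also members whose windows, shown above, held the gamma-activated sequence.

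Of the members known mainly from blood cells, Irf8 was detected at a low level and Irf4 hardly at all. Irf8 (chromosome 8, 120736358 to 120756694) had 82 reads (0.621 FPKM) in the shCtrl library and 292 reads (2.21 FPKM) in the shSetdb1 library, a read ratio of 3.44 (2.69 to 4.46). On the log2(FPKM + 1) scale its ratio was 0.99, just under the 2-fold line, because the pseudocount exceeds its control level. By reads its ratio was above that of Irf1 by 1.82-fold (1.39 to 2.39) and could not be told apart from that of Irf9 (Irf9 over Irf8, 1.15, 0.877 to 1.5003). Irf4 (chromosome 13, 30749226 to 30766976) had 0 reads in the shCtrl library and 2 in the shSetdb1 library, both under the limit of 3 reads that a count of 0 allows, so no fold is given. Among blood cell markers, Ptprc, the pan-leukocyte phosphatase CD45, had 0 and 4 reads, and Cd3e, Itgam, Adgre1, Siglech and Tyrobp had 0 reads in both libraries. Summed over the 12 markers, the reads were 275 and 2390, of which 245 and 2360 belonged to Cd68, a lysosomal membrane protein abundant in macrophages. The other 11 markers had 30 reads in each library.

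**Figure D2:**
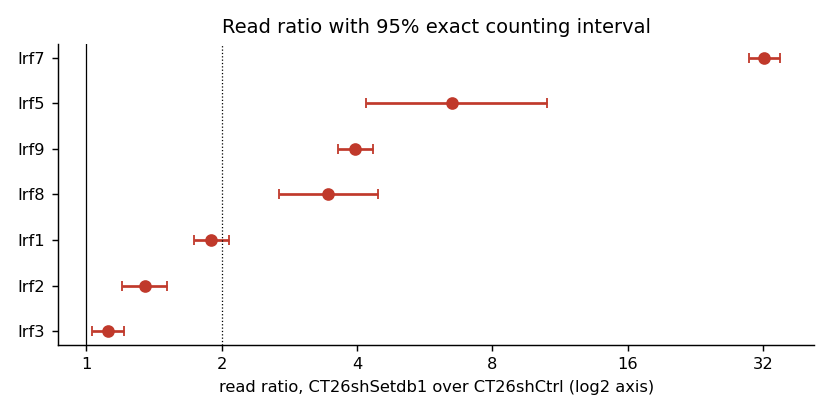
Read ratio of 7 IRF genes, CT26shSetdb1 over CT26shCtrl, on a log2 axis, with 95% exact counting intervals as bars, a solid line at equal reads and a dotted line at 2-fold. Irf7 at 32.2 lies apart from the other members, whose ratios run from 1.12 for Irf3 to 6.52 for Irf5.

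Set against each relative within the same libraries, where sequencing depth cancels, the Irf7 ratio exceeded every other with an interval clear of 1. It was 4.94 times the ratio of Irf5 (3.02 to 7.74), 8.11 times that of Irf9 (7.203 to 9.13) and 9.34 times that of Irf8 (7.13 to 12.1). Against Irf1 it was 17.0 times (15.0 to 19.1) and against Irf2 23.9 times (20.7 to 27.4). Among the relatives, the Irf5 ratio was 1.64 times that of Irf9 (1.05 to 2.69) and the Irf9 ratio 2.09 times that of Irf1 (1.84 to 2.37). The Irf3 ratio was 0.830 of that of Irf2 (0.720 to 0.956). These intervals again cover counting error within 2 libraries only.

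The order of levels in the family changed with the shSetdb1 library. In the shCtrl library the order per model length was Irf3, Irf1, Irf7, Irf9, Irf2, Irf8, Irf5 and Irf4. There Irf1 and Irf7 did not differ beyond counting error (level ratio 1.09, 0.980 to 1.22), nor did Irf8 and Irf5 (1.47, 0.915 to 2.44), although per length of the principal transcripts Irf8 stood above Irf5 there too (2.81, 1.75 to 4.67). In the shSetdb1 library the order was Irf7, Irf9, Irf3, Irf1, Irf2, Irf5, Irf8 and Irf4, with Irf7 at 11.5 times Irf9 (11.1 to 12.02). Irf3 and Irf1 could not be separated there (1.01, 0.938 to 1.09). Per length of the principal transcripts, Irf1 stood above Irf3 (1.08, 1.004 to 1.17) and Irf8 above Irf5 (1.48, 1.22 to 1.81) in the shSetdb1 library, so the order of these pairs in that library depends on the length used.

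Summed over the 8 members, the level was 46.9 FPKM in the shCtrl library and 375 FPKM in the shSetdb1 library, 8.01 times as much. Irf7 made up 19.3% of the sum in the shCtrl library and 80.0% in the shSetdb1 library, and 88.6% of the added level was Irf7. Irf3 held the largest share in the shCtrl library, 36.1%, and 5.21% in the shSetdb1 library. Without Irf7 the sum of the other 7 members was 37.8 and 75.1 FPKM, 1.99 times as much.

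**Figure D3:**
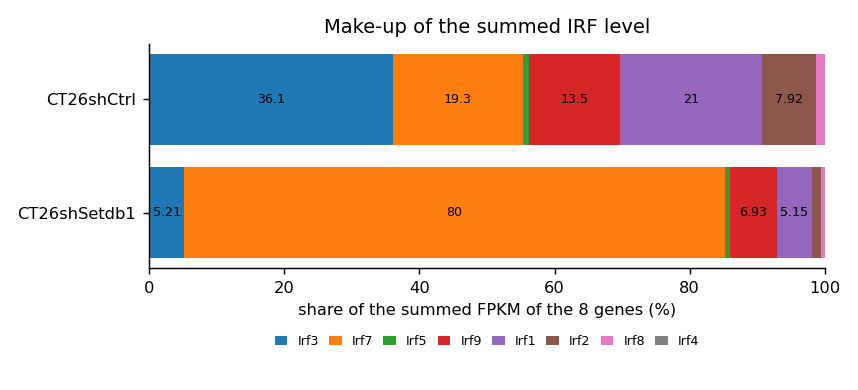
Share of each IRF gene in the summed FPKM of the 8 genes, 1 bar per library, with shares above 4% printed. The Irf7 share is 19.3% in CT26shCtrl and 80.0% in CT26shSetdb1, and the shares of Irf3, Irf1, Irf9 and Irf2 are each smaller in CT26shSetdb1 although their levels were higher.

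Few genes had levels like those of Irf7. The 5 protein-coding genes nearest to it, by Euclidean distance on log2(FPKM + 1) over the 2 libraries, were Tnfrsf9, Gapdh, Oas1a, Pdpn and Isg15. Tnfrsf9, which encodes the co-stimulatory receptor 4-1BB, was nearest at a distance of 0.55, with 8.88 FPKM in the shCtrl library and 205 FPKM in the shSetdb1 library. The Gapdh distance was 1.16, and its reads are hard to place, since the authors' table gives the same protein match to 257 loci. Oas1a, an interferon-induced oligoadenylate synthetase, went from 23.0 to 173 FPKM at a distance of 1.49. It has a close paralog whose reads may be divided with it. Pdpn, the membrane glycoprotein podoplanin, went from 13.5 to 114 FPKM, also at 1.49. Isg15, the ubiquitin-like modifier, went from 24.8 to 186 FPKM at 1.53. The authors' annotation gives the same protein match to 2 loci for each of Oas1a, Pdpn and Isg15. With 2 libraries this likeness rests on 2 values per gene.

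**Figure D4:**
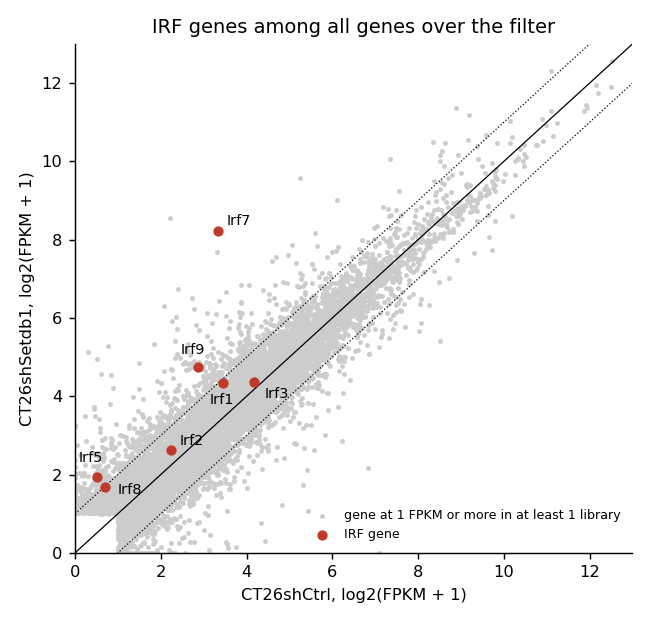
Each gene that reached 1 FPKM in either library (grey, 10671 genes) by its log2(FPKM + 1) in CT26shCtrl and CT26shSetdb1, with the 7 IRF genes at this level in red. The solid line marks equal levels and the dotted lines 2-fold differences. Irf7 lies 4.91 above the line of equality, Irf9 and Irf5 above the upper dotted line, and Irf8 and Irf1 just below it.

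Genes known as targets of IRF9-STAT complexes, IRF3 or IRF7 were higher in the shSetdb1 library almost throughout. Of 20 listed, 19 reached 1 FPKM in a library and 18 of these were at least 2-fold higher, with a median log2 ratio of 2.81, against 6.81% and -0.00039 over all genes tested. Of the 19, 9 were under 1 FPKM in the shCtrl library and entered only through the shSetdb1 library, where they are higher, so the filter in part sets this count and median. The highest was Ccl5, a chemokine, with 14 reads (0.779 FPKM) in the shCtrl library and 402 reads (22.4 FPKM) in the shSetdb1 library, a log2 ratio of 3.72. Ifit2, which encodes a translation-inhibiting antiviral protein, was at the other end with 95 and 100 reads and a log2 ratio of 0.04. Their summed reads were 7404 and 62292. This list overlaps the interferon-stimulated genes already known to be higher in these libraries, so it is no independent evidence.

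Genes known as IRF1 targets came next. Of 15 listed, 13 reached 1 FPKM, 6 of them were at least 2-fold higher and 0 lower by as much, and the median log2 ratio was 0.99. Over all genes tested, 6.81% were at least 2-fold higher and 4.85% lower. Of the 6, 2 entered only through the shSetdb1 library. Gbp2, an interferon-induced GTPase, was highest, with 1.78 FPKM in the shCtrl library and 11.3 FPKM in the shSetdb1 library and a log2 ratio of 2.15. Cd274, which encodes the checkpoint ligand PD-L1, was lowest, with 91 and 49 reads and a log2 ratio of -0.44. Cd274 entered only through the shCtrl library, where it is higher (1.34 against 0.722 FPKM). Many genes of both target lists respond to more than 1 IRF protein.

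Upstream of the IRF proteins the picture was mixed. Of 20 sensors, adaptors and kinases, 17 reached 1 FPKM, 4 were at least 2-fold higher and 0 lower by as much, with a median log2 ratio of 0.08. Over all genes tested the shares were 6.81% higher and 4.85% lower. The 4 were Dhx58, Ddx58, Ticam1 and Tmem173, which encode LGP2, RIG-I, the adaptor TRIF and STING. Dhx58 was highest, with 111 and 1697 reads and a log2 ratio of 3.35, and an antisense gene overlaps it. Tmem173 was at the threshold, with 27.0 and 55.1 FPKM and a log2 ratio of 1.003, and 3 genes rather than 4 passed under scaling by the upper quartile, without the 100 highest genes or by the libraries' own totals. Tbk1, the kinase that phosphorylates IRF3 and IRF7, had 352 reads in each library. Its relative Ikbke had 220 and 510 reads, a read ratio of 2.24 (1.91 to 2.64) and, shrunk by the pseudocount, a log2 ratio of 0.80. With a pseudocount of 0.1, 6 genes of this list rather than 4 were at least 2-fold higher. Irak1, a kinase of the Toll-like receptor route, was lowest, with 2726 and 1654 reads and a log2 ratio of -0.69.

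Of the 14 partners and cofactors of IRF proteins, 8 reached 1 FPKM, and 1 of these, Stat2, was at least 2-fold higher, with 0 lower by as much. Their median log2 ratio was 0.35. On the log2(FPKM + 1) scale a share of 1 in 8 is near that over all genes tested, 6.81% higher and 4.85% lower. With a pseudocount of 0.1, 3 were higher and 0 lower by as much, and the share of all genes was not counted at that setting. The lowest were the acetyltransferase genes Crebbp and Ep300, which coactivate IRF3, both at -0.59. Their read ratios were 0.489 (0.421 to 0.567) for Crebbp and 0.585 (0.538 to 0.635) for Ep300. Spi1 and Spib, whose products bind DNA together with IRF4 and IRF8, had 23 and 8 reads in the shCtrl library and 9 and 2 in the shSetdb1 library.

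Of 11 genes that restrain IRF proteins or interferon signalling, all reached 1 FPKM, 2 were at least 2-fold higher and 1 lower by as much, and the median log2 ratio was 0.11. Over all genes tested 6.81% were higher by this much and 4.85% lower. Usp18, which removes ISG15 and blocks the type I receptor, was highest, with 480 and 4501 reads and a log2 ratio of 3.10. Socs3, a feedback inhibitor of JAK kinases, had 411 and 962 reads and a log2 ratio of 1.13. Atf4, a stress-response factor reported to bind and inhibit IRF7, was lowest, with 479 FPKM in the shCtrl library and 178 FPKM in the shSetdb1 library and a log2 ratio of -1.42.

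**Figure D5:**
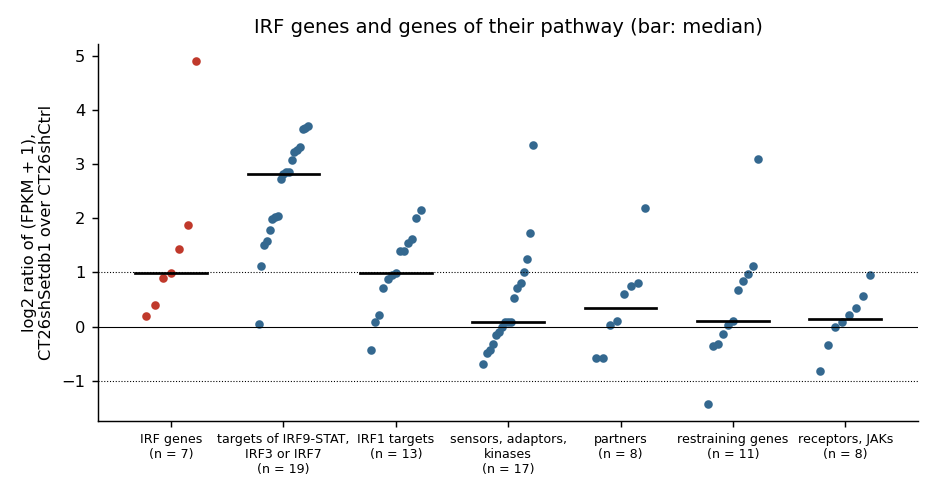
Log2 ratio of (FPKM + 1), CT26shSetdb1 over CT26shCtrl, of each IRF gene (red) and of the genes of 6 pathway lists (blue) that reached 1 FPKM in either library, with the median as a bar and dotted lines at 2-fold. The IRF3, IRF7 and IRF9-STAT targets have a median of 2.81, and the medians of the sensors, partners, restraining genes and receptors lie between 0.08 and 0.35.

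Interferon transcripts themselves were nearly undetected. Of 21 interferon genes, Ifnb1 alone had reads, 1 in the shCtrl library and 5 in the shSetdb1 library, a read ratio of 4.84 with an interval of 0.541 to 229. The other 20 had 0 reads in both libraries, and a count of 0 allows up to 3 counted reads for each. The authors' table gives the same protein match to 5 loci for Ifna12, Ifna14 and Ifna15. How reads that map to several loci were treated is not given in the sources used here, and such reads may be missing from these counts. Interferon receptor and JAK kinase genes were expressed, with 8 of 9 at 1 FPKM and a median log2 ratio of 0.14. On the log2(FPKM + 1) scale 0 of these 8 were at least 2-fold higher or lower. Over all genes tested 6.81% were higher by this much and 4.85% lower, so a count of 0 in 8 is near those shares. Ifngr2, a chain of the interferon-gamma receptor, was highest at 0.95, and Jak2 lowest at -0.82. By reads, Ifngr2 had 360 and 764, a ratio of 2.05 with an interval of 1.81 to 2.33 that includes 2. Jak2 had 239 and 94 reads, a ratio of 0.380 (0.296 to 0.485), which is 2.63-fold lower. Jak2 entered only through the shCtrl library, where it is higher (2.54 against 0.998 FPKM).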

How the data were processed

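RNA from CT26 cells was sequenced in 2 libraries, 1 per group, from total RNA extracted with TRIzol and a NEBNext Ultra kit, per the labels. The authors deposited FPKM values per gene, and CASAVA, HISAT2, featureCounts 1.5.0-p3 and GRCm38 are named in the submitters' processing notes. The annotation release, the strand setting and the treatment of reads in overlapping genes are not given in the sources used here. Positions and model lengths of all 8 members equalled those of GENCODE M21 on GRCm38.

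FPKM times model length over a common step gave whole reads for 100% of values above 0, within 0.001 read, in both libraries. The values had been divided by a common depth of 18731117 reads. Ratios are of (FPKM + 1), with a filter of 1 FPKM in at least 1 library and a 2-fold line. They keep the 1.03 ratio of the read totals, which read ratios do not. Intervals comparing 2 ratios are exact conditional intervals of the odds ratio.

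The members, the 11 gene lists and the tests were chosen with earlier results of these data known. Named genes were Setdb1, the members, the highest and lowest gene of each list over the filter, overlapping and nearest loci, and the 5 genes nearest to Irf7. Ddx58, Ticam1, Tmem173, Tbk1, Ikbke, Ep300, Spi1, Spib, Socs3, Ifnb1 and the markers at or near 0 were chosen after their values were seen, and the list extremes of the fibroblast and epithelial markers are given in the closing section. Some genes are not reported here. The calculations were tested on simulated data. Alternatives were other pseudocounts, filters, scalings and thresholds, and, chosen after seeing the data, scaling by own totals and principal transcript lengths. Tools were scipy 1.17.1, numpy 2.4.6, pandas 2.3.3 and matplotlib 3.10.9 under Python 3.11.15.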

Additional observations from a re-analysis of the deposited data

How the results depend on the processing

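Across the alternatives, 213 values kept to the counting error or, for counts, to 1.5 times the value reported, 18 moved and 0 reversed. Member log2 ratios moved only with a pseudocount of 0.1, to 5.04 for Irf7, 2.50 for Irf5, 1.68 for Irf8 and 2.02 for Irf9, since a smaller pseudocount shrinks low genes less. Irf8 then passed 2-fold. The count of members higher was 5 at 1.5-fold and 1 at 4-fold, as those thresholds make it. The family median was 1.68 with the pseudocount of 0.1, and the mean in place of the median was 1.53. With the pseudocount of 0.1, the genes at least 2-fold higher were 3 partners, 4 restraining genes, 1 receptor gene and 1 fibroblast marker. In the same setting 1 receptor gene was at least 2-fold lower. The sensors, adaptors and kinases then counted 6 higher and the IRF1 targets 8, within 1.5 times the value reported. The share of all genes was not counted at that pseudocount, so these counts have no comparison. The median of the IRF9-STAT, IRF3 and IRF7 targets was then 3.29. With the filter at 5 FPKM that median was 3.15, that of the sensors, adaptors and kinases 1.003 and that of the partners 0.10, over fewer genes. Without a filter the partner median was 0, because the added genes had few or no reads. The largest shift of the median over all genes came from upper-quartile scaling, to -0.0456. No paired analysis was possible because a group held a single library, so no library could be left out either. Depth limits Irf4, Irf5, Irf8 and the interferon genes most.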

Other observations

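Genes over the filter were also counted by the letters of their RefSeq promoter windows. Of 289 genes with the ISRE core GAAANNGAAA in a window, 43 (14.9%) were at least 2-fold higher, against 424 of 7360 (5.76%) without it. The median log2 ratios were 0.08 and -0.0050. Of the 15 IRF9-STAT, IRF3 and IRF7 targets over the filter with a window, 9 held the letters, against 3.78% of the 7649 genes over the filter with a window. The counts were 3 of 8 for the restraining genes, 3 of 10 for the IRF1 targets, 3 of 13 for the sensors, adaptors and kinases, 1 of 6 for the partners and 0 of 7 for the receptors and JAK kinases. For the gamma-activated sequence the shares at least 2-fold higher were 7.26% of 592 genes with it and 6.01% of 7057 without it. These are counts over genes of 2 libraries, with no test. The listed IRF9-STAT, IRF3 and IRF7 targets are known for factors that read the ISRE, so their share is no independent evidence. Of the 19 such targets over the filter, 9 passed only through the shSetdb1 library. The 289 genes with the ISRE core were counted under the same filter and include listed targets.

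Among the other marker lists, 3 colon epithelial markers reached 1 FPKM, from Krt18 at a log2 ratio of 1.23 to Krt20 at 2.59. Of these, 1 entered only through the shSetdb1 library, where it is higher. Of 7 fibroblast markers, 4 reached 1 FPKM, from Col1a2 at -0.56 to Pdgfra at 0.89. Pdgfra entered only through the shSetdb1 library, with 0.501 FPKM in the shCtrl library and 1.77 FPKM in the shSetdb1 library. The 5 endothelial markers had 1 read in the shCtrl library and 0 in the shSetdb1 library.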
